A study of Mus musculus with 36 samples.

Results

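Siglec1, Marco, Timd4, Adgre1, Slc40a1, Mrc1, Vsig4, Hmox1 and Cd5l, a set of 9 genes of resident and sinus macrophages, were followed in mesenteric lymph nodes of mice in which lymphotoxin-beta receptor signalling was blocked. The 9 genes were chosen with earlier results of these data known. Every probe set (the group of array oligonucleotides that reports 1 transcript) whose only symbol was 1 of the 9 names was taken. This gave 13 of 45137 probe sets and 9 of 18193 named genes. Array A held 11 of the 13 and array B, a second Affymetrix array with other probe sets, held 2. RNA came from whole nodes of mice given PBS (day 0) or soluble lymphotoxin-beta receptor for 1, 2, 3, 27 or 35 days, and the series title names the agent as sLTbetaR-Ig. There were 6 groups of 3 samples on either array, 36 samples in all. The labels give no strain, age, dose or route, and they describe neither PBS animals at the later days nor animals given a control protein. The labels do not tie the samples to separate mice. The p-values below rest on the spread of samples within groups, pooled over the 6 groups of 3, and that spread may be technical.

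The soluble receptor is a decoy that takes up lymphotoxin and LIGHT before they reach the lymphotoxin-beta receptor of the node. That receptor sits on stromal cells, endothelium and myeloid cells, and lymphotoxin from B cells is known to maintain the macrophages that line the subcapsular sinus. Lymph node macrophages include subcapsular sinus macrophages, which carry little of the Adgre1 product, and medullary macrophages, which carry the Adgre1 product and scavenger receptors. The medullary macrophages clear lymph of particles and dying cells. The Siglec1 product is found on sinus macrophages of both places, so Siglec1 in whole-node RNA does not separate them. In whole-node RNA, fewer cells of a type and less RNA per cell cannot be told apart. Mrc1 and Marco are also known from lymphatic endothelium, so their signal need not come from macrophages alone.

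The promoters of 5 of the 9 genes were found in a reference set of promoters (GRCm38.p6), as windows of 300 bases that span the start site. Timd4, Mrc1 and Marco are shown because Timd4 was the gene that fell and because the deviations of Mrc1 and Marco from their group means ran together. Capitals mark matches to GAGGAA (the core of the binding site of the myeloid factor PU.1), TGANNNNGC (the antioxidant response element), CACGTG (the E-box) and a loose NF-kB motif, searched on both strands.
Timd4, chr11:46810549-46810848, plus strand: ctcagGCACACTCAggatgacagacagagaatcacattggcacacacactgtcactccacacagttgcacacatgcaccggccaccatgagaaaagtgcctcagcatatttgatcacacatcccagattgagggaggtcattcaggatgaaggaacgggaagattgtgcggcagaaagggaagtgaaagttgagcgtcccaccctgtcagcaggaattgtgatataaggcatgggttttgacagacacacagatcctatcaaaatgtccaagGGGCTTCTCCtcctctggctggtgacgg
Mrc1, chr2:14229164-14229463, plus strand: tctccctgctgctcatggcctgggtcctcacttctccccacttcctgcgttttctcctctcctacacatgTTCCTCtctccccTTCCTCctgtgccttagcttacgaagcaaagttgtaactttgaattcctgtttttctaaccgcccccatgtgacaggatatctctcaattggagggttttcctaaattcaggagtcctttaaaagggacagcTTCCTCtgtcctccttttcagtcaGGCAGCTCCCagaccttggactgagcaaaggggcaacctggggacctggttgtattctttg
Marco, chr1:120504975-120505274, minus strand: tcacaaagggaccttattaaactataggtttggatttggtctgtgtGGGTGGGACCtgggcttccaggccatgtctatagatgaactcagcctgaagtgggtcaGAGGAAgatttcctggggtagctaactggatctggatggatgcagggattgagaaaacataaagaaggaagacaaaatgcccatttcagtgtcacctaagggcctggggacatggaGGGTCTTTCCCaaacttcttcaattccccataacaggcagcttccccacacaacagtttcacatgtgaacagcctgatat
The Mrc1 window held the PU.1 core at 3 places and the Marco window at 1, while these letters were not in the Timd4 window. The matched windows of Vsig4 and Cd5l, not shown, also held the PU.1 core. The Timd4 window held 1 antioxidant match on the minus strand and 1 NF-kB match just after the start site. None of the 3 windows shown held CACGTG. In the Marco window the last capital run joins 2 overlapping NF-kB matches, 1 on each strand. Of 32851 promoters of the same length, 28.3% held GAGGAA, 41.3% TGANNNNGC, 7.15% CACGTG and 50.8% the NF-kB motif. These matches are descriptions of letters and not measured sites. Adgre1, Hmox1, Siglec1 and Slc40a1 had no entry in that promoter set.

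The deposited values are linear intensities, and the median of a sample's values was 272.8 to 299.5 for array A and 149.8 to 165.2 for array B. A probe set was tested where it exceeded its table's median on at least 3 of 18 arrays, and it is termed called where its adjusted p in limma was under 0.05. Of the 13 probe sets 10 were tested. The other 3 (2 of the 3 probe sets of Siglec1 and that of Vsig4) were too dim and are described by their values. Where a gene has several probe sets on an array, the first is the one with the highest mean intensity. All genes of the B cell and T cell lists with a probe set (9 each) passed the same filter by at least 1 probe set, and so did 8 of the 9 macrophage genes. Small subunits of the respiratory chain, short abundant transcripts used here as a sign of RNA composition, were lower on the later days. Their mean deviation in log2 on array A was 0.118 to 0.159 in PBS samples, -0.284 to -0.0217 at day 27 and -0.446 to -0.238 at day 35 (43 genes). PBS samples did not overlap with either late day. A fit with this mean as a covariate therefore cannot separate it from late treatment, and a call lost there has no single reading. Of the 43, limma called 9 lower at day 27 and 34 at day 35, among them Ndufc1 (-0.92), Ndufb6 (-0.72), Cox5a (-0.63) and Atp5j (-0.56) at day 35 (adjusted p of 0.00112 or less).

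Across the 5 days against PBS, Adgre1 and Slc40a1 rose, Timd4 fell, and no other of the 9 genes was called. At day 1 limma called 0 of 10 probe sets, against 0.0164% of the array A probe sets and 0.00799% of those on array B. At day 2 it called 0 of 10 (background 0.114% and 0.024%). At day 3 it called 2 of 8 on array A higher (background 0.139%) and 0 of 2 on array B (background 0.0799%, either direction). At day 27 it called the same 2 higher (background 0.58%) and 1 of 2 on array B lower (background 0.328%). At day 35 it called 1 higher on array A (background 1.77%) and 1 lower on array B (background 2.88%). The F test over the 6 groups called Adgre1 (adjusted p = 0.00946), 1 probe set of Slc40a1 (0.0129) and Timd4 (0.0174), where the background was 7.71% for array A and 0.951% for array B. The median log2 change of the 8 tested probe sets on array A was 0.07 at day 1, 0.21 at day 2, 0.22 at day 3, 0.32 at day 27 and 0.25 at day 35. Over all probe sets tested on that array it was 0.02, 0.03, 0.02, 0.05 and 0.03. The contrasts with day 0 share the same 3 PBS samples and are not separate evidence. Because the 9 genes were chosen with earlier results of these data known, the comparisons with all probe sets are descriptions and not tests.

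**Figure D1:**
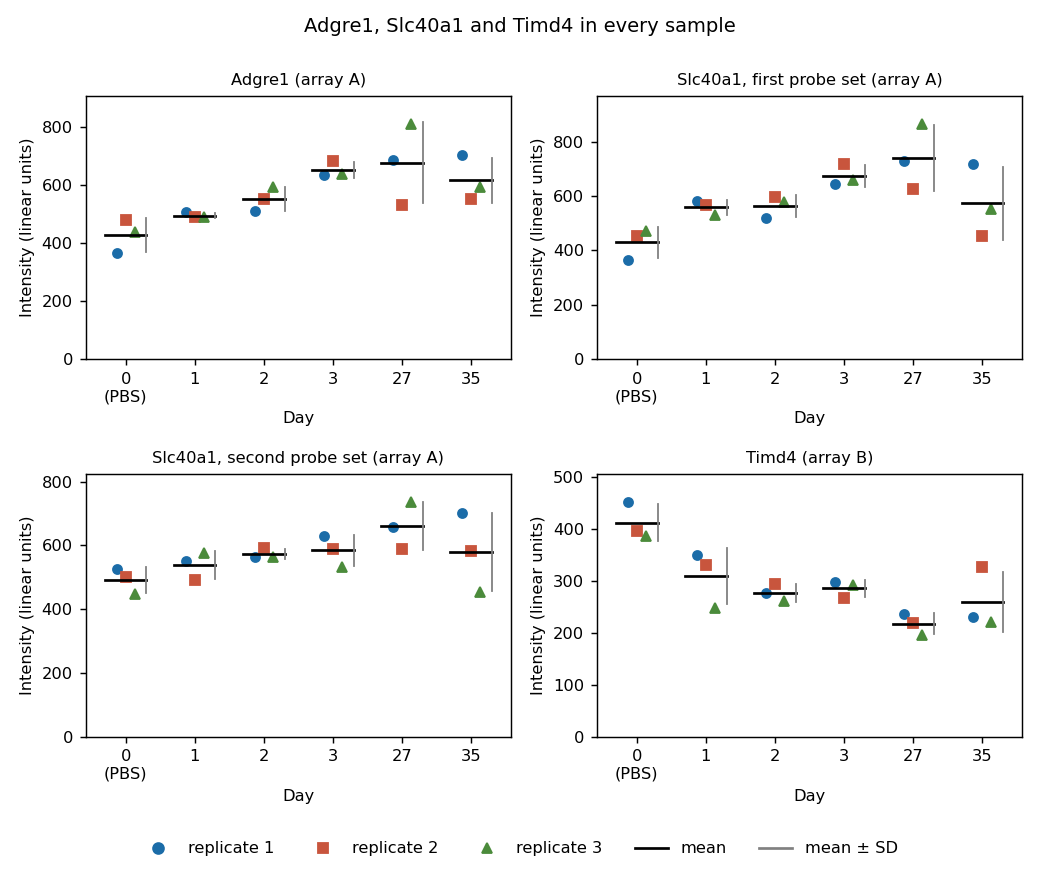
Intensity (linear units) of Adgre1, both probe sets of Slc40a1 and Timd4 in each of the 18 samples of their array, by day; markers show the replicate number, black bars the mean and grey bars the mean ± SD (n = 3). All 15 treated samples lie above the PBS samples for Adgre1 and below them for Timd4, and 1 day 35 sample of the first Slc40a1 probe set lies within the PBS range.

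Adgre1 encodes the adhesion receptor that marks most tissue macrophages in mice and is strong on medullary macrophages. Its probe set read 365, 479 and 437 in the PBS samples, 505, 487 and 489 at day 1, 509, 552 and 593 at day 2, and 633, 682 and 636 at day 3. At day 27 it read 686, 531 and 809, and at day 35 702, 552 and 592. Every one of the 15 treated samples was above every PBS sample, which held for 0.376% of the probe sets tested on array A. The mean went from 427 ± 57.8 (SD, n = 3) in PBS samples to 494 ± 9.76 at day 1, 551 ± 42.3 at day 2 and 650.4 ± 27.6 at day 3. It then stood at 676 ± 139 at day 27 and 615 ± 77.7 at day 35 (n = 3 each). In the order of the means, PBS samples, day 1 and day 2 did not overlap with their neighbours, while days 2, 35, 3 and 27 did. The log2 changes at days 1 and 2, 0.22 and 0.37 (SE 0.126 each), did not pass the test (adjusted p = 0.998 and 0.681). At day 3 the change was 0.62 (adjusted p = 0.0296), the fifth largest rise among 12231 probe sets. At day 27 it was 0.65 (adjusted p = 0.00756) and at day 35 0.53 (adjusted p = 0.015). The late days (27 and 35) against the early days (1 to 3) gave 0.19 (adjusted p = 0.133), which was not called. Leaving out any 1 of the 6 arrays kept the day 27 call of Adgre1 (adjusted p up to 0.0455), but a fit of only the PBS and day 27 samples did not (adjusted p = 0.0673). The day 3 call was lost in 5 of 6 cases (up to 0.143, kept without day 0 replicate 2), and the day 35 call without day 0 replicate 1 (0.0724) or day 35 replicate 1 (0.0678). When dim probe sets were kept in the test, Adgre1 lost its day 3 and day 35 calls (adjusted p = 0.109 and 0.0558). With the small-subunit mean as a covariate the Adgre1 changes were 0.60, 0.62 and 0.48 at days 3, 27 and 35 and none was called (adjusted p = 0.0616, 0.055 and 0.279).

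Slc40a1 encodes ferroportin, the iron exporter through which macrophages release iron taken from engulfed red cells. Its first probe set read 364, 453 and 472 in PBS samples, 579.8, 565 and 529 at day 1, 519, 595 and 577 at day 2, and 644, 719 and 658 at day 3. The values were 728, 625 and 865 at day 27 and 717, 452 and 550.5 at day 35. All samples of days 1 to 27 were above all PBS samples, while day 35 replicate 2 was inside the PBS range. At day 1 such an absence of overlap upwards was seen in 7.14% of the probe sets tested on array A. The mean was 429.7 ± 57.8 (SD, n = 3) in PBS samples, 674 ± 39.9 at day 3, 739 ± 121 at day 27 and 573 ± 134 at day 35. The change was 0.38 at day 1 and 0.40 at day 2 (log2, SE 0.139, adjusted p = 0.998 and 0.746), neither of them called. The probe set was called higher at day 3 (0.66, adjusted p = 0.0364) and at day 27 (0.78, adjusted p = 0.00426), the third and the second largest rise on the array. At day 35 the change of 0.40 (adjusted p = 0.0896) did not pass, though it did without day 35 replicate 2 (0.56, adjusted p = 0.036). Day 35 against day 27 gave -0.38 (adjusted p = 0.62, unadjusted p = 0.0135), which did not pass either. On both arrays that contrast called 0% of all tested probe sets. The day 27 call held in all 6 cases with 1 array left out (adjusted p up to 0.0292), with the small-subunit covariate (0.83, adjusted p = 0.0279) and in the other 10 settings tried. The day 3 call was lost whichever of the 6 arrays was left out (adjusted p up to 0.17), when dim probe sets were kept in the test (0.135), with the small-subunit covariate (0.056) and without the 3 samples of lowest array weight (0.0627).

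The second probe set of ferroportin was not called on any day. It read 527, 503 and 448 in PBS samples, 553, 491 and 575 at day 1, 564, 591 and 565 at day 2, and 631, 589.8 and 533 at day 3. It read 658, 588 and 737 at day 27 and 701, 583 and 456 at day 35. Its samples of days 2, 3 and 27 were all above those of PBS, and those of days 1 and 35 overlapped with them. Such an absence of overlap upwards was seen in 9.5%, 9.08% and 10.9% of the probe sets tested on array A on these days. The log2 change was 0.13, 0.22, 0.25, 0.42 and 0.22 from day 1 to day 35 (SE 0.122), closest to the threshold at day 27 (adjusted p = 0.0675). It passed at day 27 without day 27 replicate 2 (0.50, adjusted p = 0.0341) and at day 35 without day 35 replicate 3 (0.38, adjusted p = 0.046). Both Slc40a1 probe sets had their highest mean at day 27 and their lowest in PBS samples.

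Timd4 encodes Tim-4, a receptor for phosphatidylserine on dying cells that marks long-lived resident macrophages, and it is the gene of the set that fell. On array B it read 452, 396 and 386 in PBS samples, 349.6, 330.4 and 248 at day 1, 276, 293 and 260.04 at day 2, and 297, 266 and 292 at day 3. At day 27 it read 236, 219 and 196, and at day 35 229.9, 326 and 221. All 15 treated samples were below all 3 PBS samples, which held for 0.951% of the probe sets tested on that array. The mean fell from 411 ± 35.5 (SD, n = 3) to 217 ± 20.2 at day 27 (n = 3), 0.53 of the PBS mean, and was 259 ± 58 at day 35. The changes of -0.42, -0.57 and -0.53 at days 1, 2 and 3 (log2, SE 0.138) did not pass the test (adjusted p = 0.541, 0.662 and 0.313), although day 2 ranked eleventh among the negative changes on the array. The decreases at day 27 (-0.92, adjusted p = 0.0111) and at day 35 (-0.69, adjusted p = 0.00964) were called. In the order of the means only PBS samples and day 1 did not overlap as neighbours. Late against early days gave -0.30 (adjusted p = 0.107), and day 35 against day 27 gave 0.24 (adjusted p = 1), neither called. The day 27 call was lost without day 0 replicate 1 (adjusted p = 0.0544), day 0 replicate 2 (0.0947) or day 27 replicate 3 (0.0576). The day 35 call was lost without day 0 replicate 1 (0.0553), day 35 replicate 1 (0.0668) or day 35 replicate 3 (0.0583). This call was also lost without day 3 replicate 3, day 27 replicate 2 and day 35 replicate 3 together (Timd4 at -0.58, adjusted p = 0.0843). These 3 samples had the lowest weights on array A. On array B, which holds Timd4, they weighed 0.503, 1.1 and 0.823, and others were lower, such as day 1 replicate 3 (0.315). The small-subunit covariate was taken from the array A sample of the same number, and the labels do not say whether both share an RNA extract. With this covariate the Timd4 changes were larger and no longer called, -1.07 at day 27 (adjusted p = 0.0616) and -0.92 at day 35 (adjusted p = 0.0754).

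Cd5l encodes a secreted scavenger-like protein of tissue macrophages, and Mrc1 the mannose receptor. Cd5l read 1424, 1329 and 1570.5 in PBS samples and 1944, 1645 and 1969 at day 27, with a mean of 1441 ± 121 against 1853 ± 180 (SD, n = 3 each). All its samples of days 2, 27 and 35 were above those of PBS, and those of days 1 and 3 overlapped. An absence of overlap upwards at days 2, 27 and 35 was seen in 9.5%, 10.9% and 15.9% of the probe sets tested on array A. The change of Cd5l was 0.09, 0.26, 0.20, 0.36 and 0.31 from day 1 to day 35 (log2, SE 0.107), with adjusted p of 0.0726 at day 27 and 0.0879 at day 35. It passed at day 27 without day 27 replicate 2 (0.44, adjusted p = 0.0277).

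Mrc1 read 557, 621 and 620.1 in PBS samples, 808, 604 and 789.9 at day 27, and 865, 656 and 694 at day 35. Its day 27 samples overlapped with those of PBS through replicate 2, and those of days 2, 3 and 35 did not. On those 3 days 9.5%, 9.08% and 15.9% of the probe sets tested on array A had all samples above PBS. The changes were 0.01, 0.19, 0.25, 0.28 and 0.29 (log2, SE 0.109), and the smallest adjusted p of Mrc1 was 0.114, at day 35. Without day 27 replicate 2 the Mrc1 change at day 27 was 0.42 and passed (adjusted p = 0.0223). That library was the lowest of its day for 6 of the 8 probe sets tested on array A, and its array weight of 0.232 was the lowest on that array. Its part in these results beyond the values without it was not tested.

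**Figure D2:**
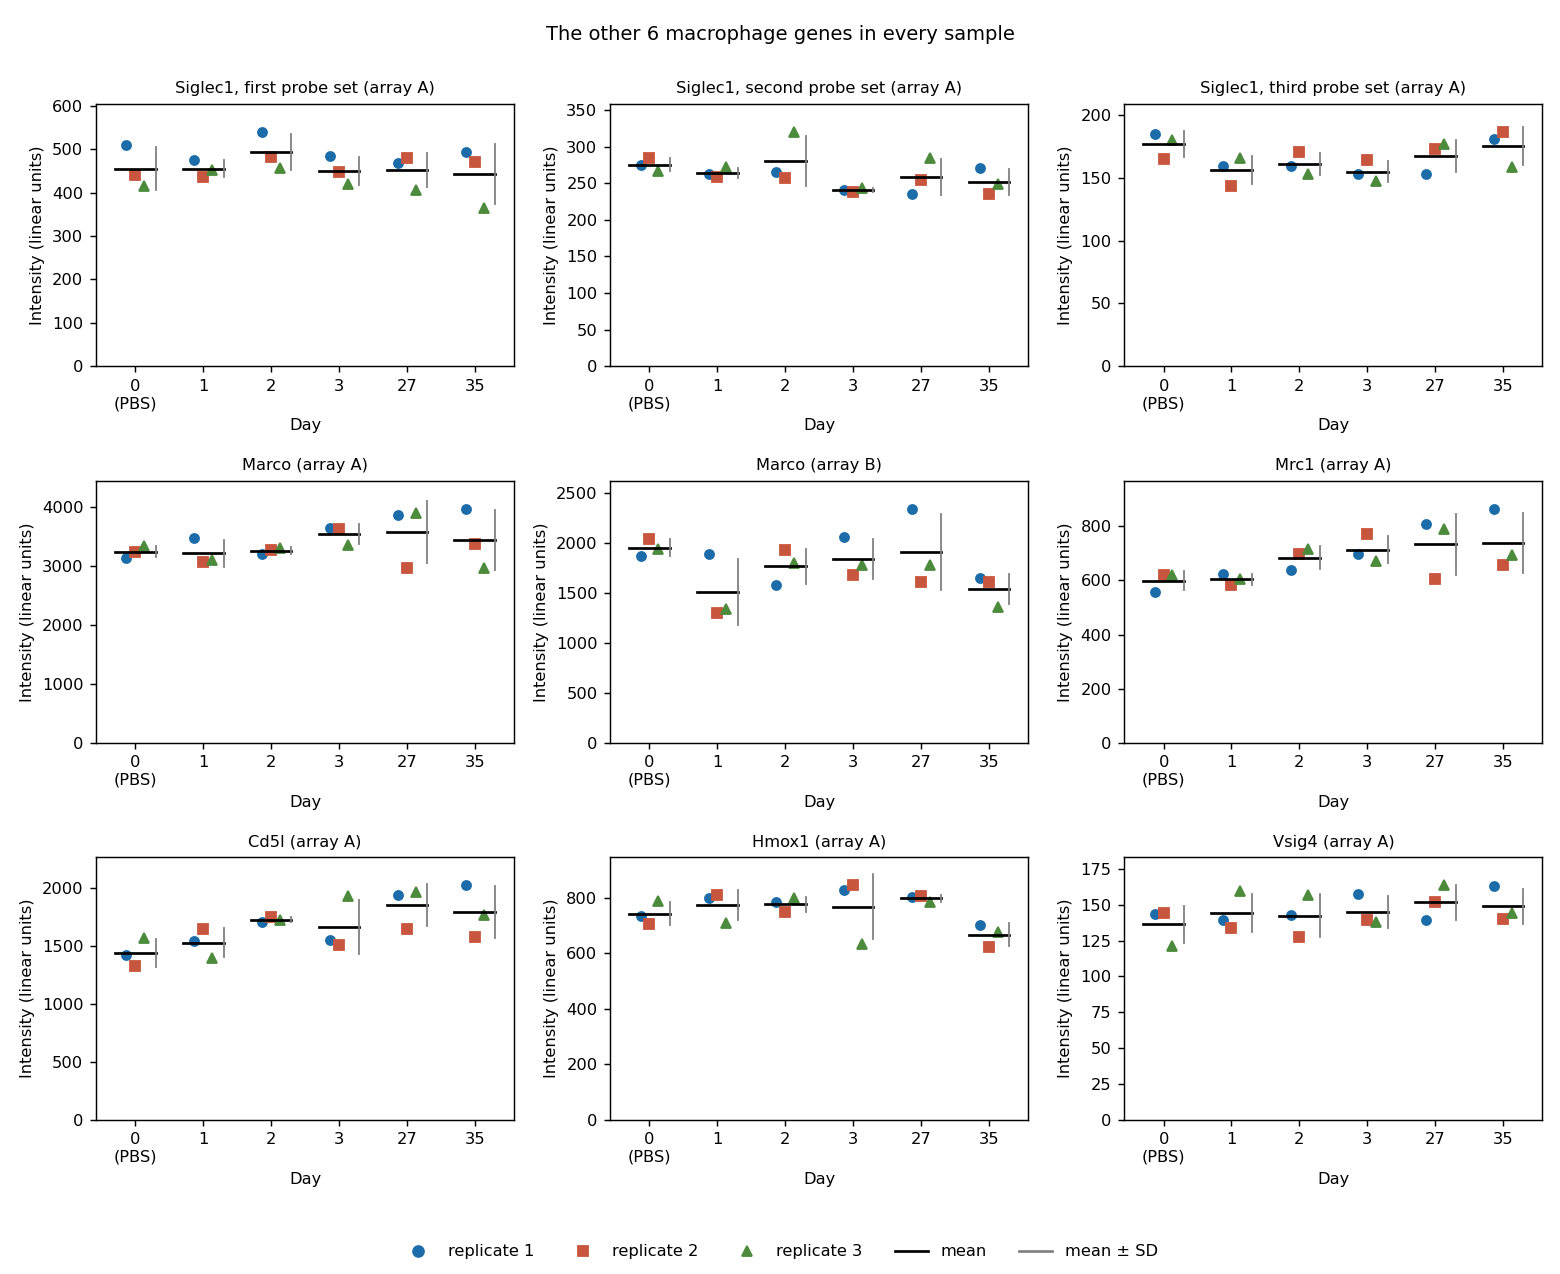
Intensity (linear units) of the 9 probe sets of Siglec1, Marco, Mrc1, Cd5l, Hmox1 and Vsig4 in each of the 18 samples of their array, by day; markers show the replicate number, black bars the mean and grey bars the mean ± SD (n = 3). Groups overlap on most days, and the means of the first Siglec1 probe set stay between 443 and 493.

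Siglec1 encodes CD169, a sialic acid receptor of subcapsular and medullary sinus macrophages. Its first probe set read 509.8, 441 and 415 in PBS samples, 476, 436 and 453 at day 1, 539.8, 483 and 458 at day 2, and 484, 448 and 419.9 at day 3. At day 27 it read 469, 481 and 407 and at day 35 493, 471 and 365. The groups overlapped on every day, and the log2 change lay between -0.05 and 0.12 (SE 0.108). The 95% interval of the change at day 35 ran from -0.27 to 0.18, so a log2 change below -0.27 lies outside it. The untested probe sets of Siglec1 were lower than PBS in all 3 samples of day 3. There the second probe set had a mean of 241 ± 2.24 against 276 ± 8.97 in PBS samples, and the third 155 ± 8.42 against 177 ± 10.4 (SD, n = 3 each). Fitted with no filter on dim probe sets, these changes were -0.19 each and not called (adjusted p = 0.564 and 0.545). An absence of overlap downwards was seen at day 3 in 6.96% of the probe sets tested on array A.

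Marco, a scavenger receptor of medullary and marginal zone macrophages, had a tested probe set on each array. On array A it read 3139, 3242 and 3331 in PBS samples, 3643, 3624 and 3344 at day 3, 3859, 2971 and 3900.5 at day 27, and 3967, 3369 and 2960.2 at day 35. The day 3 samples were all above PBS, as in 9.08% of the probe sets tested on array A. The samples of the other days overlapped with PBS. The log2 change on array A was between -0.01 and 0.13 (SE 0.101, F test adjusted p = 0.748). On array B the Marco probe set read 1873, 2039 and 1944 in PBS samples, 1891, 1301 and 1339 at day 1, and 1649.6, 1608 and 1364 at day 35. Its day 35 samples were all below PBS, as in 17% of the probe sets tested on array B. The changes on array B were -0.39 at day 1 (SE 0.148, adjusted p = 0.574) and -0.35 at day 35 (adjusted p = 0.205), neither called. The change of Marco at day 35 thus had opposite signs on the 2 arrays and passed on neither.

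Hmox1 encodes heme oxygenase, which opens heme inside macrophages and frees its iron, and Vsig4 encodes a complement receptor of resident macrophages. Hmox1 read 735, 707 and 788 in PBS samples, 805, 806 and 784 at day 27, and 701, 622 and 679 at day 35. Its day 35 samples were all below PBS, as in 13.2% of the probe sets tested on array A. The Hmox1 change was -0.16 at day 35 (log2, SE 0.0926, adjusted p = 0.333) and between 0.04 and 0.10 on the other days. Day 35 against day 27 gave -0.26 for Hmox1 (adjusted p = 0.599), which was not called. Vsig4 read between 121 and 164 over the 18 arrays and was above the table's median on 0 of them. Its groups overlapped with PBS on every day.

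**Figure D3:**
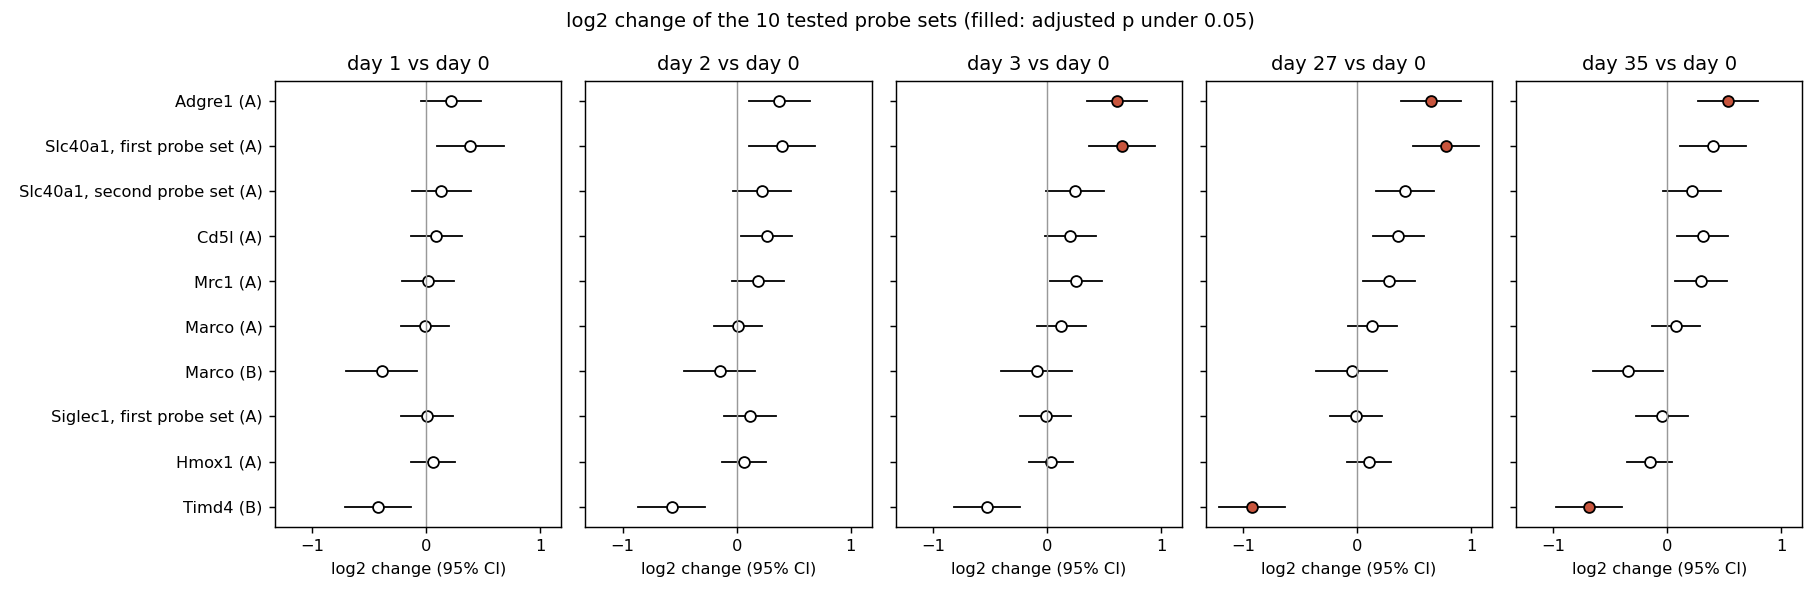
Log2 change (x axis, with the 95% confidence interval of the limma fit) of the 10 tested probe sets (y axis, with the array) against PBS at days 1, 2, 3, 27 and 35; filled points have an adjusted p under 0.05. Adgre1 and the first Slc40a1 probe set lie to the right at days 3 and 27, Timd4 lies to the left on every day, and the first Siglec1 probe set stays near 0.

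Within the groups, several of these genes varied together from sample to sample. After each sample's log2 value was set against the mean of its day, Adgre1 and the first probe set of Slc40a1 correlated with r = 0.88 (Spearman's rho 0.89, 18 samples), and Adgre1 and Mrc1 with r = 0.88 (rho 0.95). Slc40a1 and Mrc1 gave 0.86, Marco and Mrc1 0.86, and Marco and Adgre1 0.73. Without the 2 samples farthest from the median these became 0.91, 0.81, 0.80, 0.71 and 0.53 in the same order. Among the 12230 other probe sets tested on the array, the share that correlated with Slc40a1 more highly than Adgre1 did was 0.00818%. Siglec1 gave -0.37 with Adgre1 and -0.31 with the first probe set of Slc40a1, but 0.57 with the second (rho 0.42). That value was 0.33 without the 2 farthest samples, and 16.9% of the other probe sets correlated more highly than 0.57 with Siglec1. The 2 probe sets of Slc40a1 gave only 0.35 with each other, and 0.18 without the 2 farthest samples. Of the 28 pairs 10 exceeded 0.5, with a median of 0.37, and the median r of Adgre1 with all tested probe sets was 0.08. These points share libraries, arrays and scaling, so the values are descriptions. Marco could be followed on both arrays, where its deviations in samples of the same day and number gave r = 0.66, against a median of 0.29 over the 94 probe sets tested on both. Whether such samples share an RNA extract is not given in the labels.

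**Figure D4:**
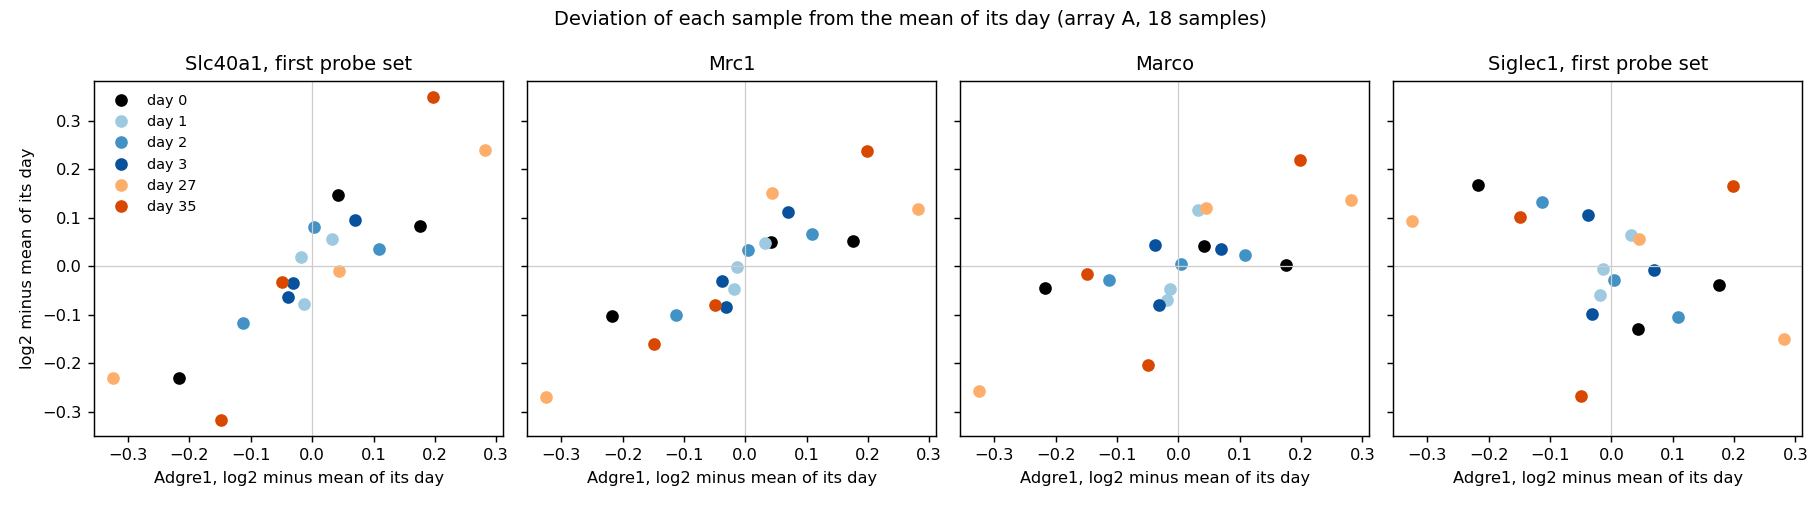
Deviation of each of the 18 array A samples from the mean of its day (log2 units), Adgre1 on the x axis against the first probe sets of Slc40a1 and Siglec1, Mrc1 and Marco on the y axes; colours show the day. The points rise together for Slc40a1 (r = 0.88), Mrc1 (0.88) and Marco (0.73), and not for Siglec1 (-0.37).

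Over all 18 arrays, group differences included, the genes most like Adgre1 were Col14a1, a fibril-associated collagen (r = 0.93), Frmd4b (0.93) and Slc40a1 (0.91). Col14a1 rose at day 3 (0.54, adjusted p = 0.0279), day 27 (0.50, adjusted p = 0.0148) and day 35 (0.42, adjusted p = 0.0224). For Slc40a1 they were Adgre1 (0.91), Sema4a (0.85) and Cp, the ferroxidase ceruloplasmin (0.85). That likeness of Cp holds for 1 of its probe sets, which rose at day 27 (0.39, adjusted p = 0.0373), while its 5 other tested probe sets gave r between 0.08 and 0.53 and were not called at day 27. Another of these Cp probe sets, with r = 0.08, fell at day 35 (-0.26, adjusted p = 0.0443) and was lower late against early (-0.31, adjusted p = 0.000257). For Mrc1 they were Adgre1 (0.89), Frmd4b (0.88) and Gbp2b (0.88). For Timd4 on array B they were Marcks (0.91), Phf3 (0.85) and Smg1 (0.84). Marcks, an actin-linked substrate of protein kinase C, fell at day 27 (-0.44, adjusted p = 0.0138) and at day 35 (-0.42, adjusted p = 0.0032). Cd5l ran with Nrip1 (0.84), the IgA heavy chain gene Igha (0.80) and Dnajc10 (0.79), and Igha rose at day 27 (0.59, adjusted p = 0.00215) and at day 35 (0.52, adjusted p = 0.0029). Marco ran with Cyp1b1 (0.85), Slc43a3 (0.84) and Tor4a (0.82), Hmox1 with Nop2 (0.86), Dkk3 (0.86) and Pop7 (0.85), and Siglec1 with Myo7b (0.91), Dhdds (0.88) and Cenpo (0.87). These are the highest of about 11145 probe sets compared on array A and 8619 on array B.

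Few other macrophage genes were called. Of 35 listed, 29 were tested, and 1 was higher and 1 lower at day 3 and again at day 27, with 0 called at day 35. Clec4n, the receptor Dectin-2, rose by 0.35 at day 3 and 0.34 at day 27 (log2, adjusted p = 0.0279 and 0.0114). Lyz2, lysozyme, fell by 0.36 and 0.56 (adjusted p = 0.0108 and 7.29e-05). Of all probe sets tested on array A, 0.417% were called lower at day 3, 2.6% at day 27 and 5.58% at day 35. The median of the list was 0.03 at day 3 and 0.06 at day 27, close to that of all probe sets on array A (0.02 and 0.05). Csf1r, the receptor for macrophage growth factor, changed by 0.30 at day 27 and by 0.30 at day 35 without passing (adjusted p = 0.0827 and 0.0536). Cd68 (-0.06 at day 27, -0.34 at day 35), Mertk (-0.01 and -0.10), C1qa (0.06 and -0.05) and the medullary lectin Cd209b (0.03 and -0.14) did not pass on these days either. Late against early, where 4.98% of the probe sets tested on array A were called higher and 10.4% lower, Cd68 (-0.32), C1qc (-0.24), Aif1 (-0.25), Cd14 (-0.16) and Fcgr3 (-0.24) fell and Clec4e (0.22) rose. None of the 10 probe sets of the 9 genes was called by limma in that contrast (background 15.4% on array A and 1.66% on array B, either direction). Itgam, Cd163, Tlr4, Cd209a and Clec4a2 were on the arrays but too dim to test.

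Genes around Slc40a1 and Hmox1 in heme and iron handling were not called on any day against PBS when each stood by its tested probe set of highest mean (0 of 22 tested, of 28 listed); for Cp, 2 of its other probe sets were called, in opposite directions, as given above. The heavy ferritin chain Fth1 changed by 0.03 at day 27 (adjusted p = 0.817), the transferrin receptor Tfrc by 0.18 (0.161) and the phagosomal metal transporter Slc11a1 by 0.11 (0.513). Late against early, Tfrc (0.15, adjusted p = 0.0292) and the heme-sensing repressor Bach1 (0.26, adjusted p = 0.0336) rose. In the same contrast Blvrb, a biliverdin reductase, fell by 0.33 (adjusted p = 0.000453) and Hmox2 by 0.12 (adjusted p = 0.0403). Of all probe sets tested on array A, 15.4% were called there in either direction. Of 7 tested genes of the erythroid list 1 was called, the globin Hbb-b2, with log2 changes of -1.32 at day 27 and -1.19 at day 35 (adjusted p = 0.0197 and 0.0192), and the summed intensity of the list ran from 2098 to 2402 in PBS samples and from 1930.2 to 2308 at day 27. Its part in the values of Slc40a1 was not tested.

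Among 14 tested genes of macrophage growth and lymphotoxin signalling, of 20 listed, none rose and 3 fell. More probe sets fell than rose on array A as a whole. Of all those tested there, 0.417%, 2.6% and 5.58% were called lower at days 3, 27 and 35. Called higher were 0.139%, 0.58% and 1.77%. The cytokine receptor chain Csf2rb fell at day 3 (-0.55, adjusted p = 0.0191), day 27 (-0.70, adjusted p = 0.00104) and day 35 (-0.57, adjusted p = 0.00276). Spi1, which encodes PU.1, fell at day 27 (-0.43, adjusted p = 0.00962) and at day 35 (-0.44, adjusted p = 0.00491), and Id3 at day 35 (-0.27, adjusted p = 0.018). PU.1 and Id3 also act in B cells. Of 9 tested B cell genes 1 fell, Cd79a (-0.38 at day 27 and -0.35 at day 35, adjusted p = 0.00594 each). The kinase Blk passed the F test (adjusted p = 0.0416) and no contrast with PBS (-0.14 at day 27, adjusted p = 0.273). The summed intensity of the B cell list was 14537 to 15147 in PBS samples and 13428 to 14510.2 at day 27, and its part in the decreases of Spi1 and Id3 was not tested. The growth factor Csf1 (0.11 at day 27, adjusted p = 0.517), the ligands Lta (0.03) and Ltb (-0.02) and the receptor Ltbr (0.10) did not pass at day 27. Il34, Csf2, Tnfsf11, Tnfrsf11b and Tnfsf14 were too dim to test.

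For the uptake of dying cells, the function of Timd4, 20 of 24 listed genes were tested. Mfge8, which bridges phosphatidylserine to phagocytes and is made by follicular dendritic cells, fell at day 2 (-1.16, adjusted p = 2.81e-05; 0.0899% of the probe sets tested on array A were called lower that day), day 3 (-1.32) and day 27 (-0.63, adjusted p = 0.0031), and stood at -0.04 at day 35 (adjusted p = 0.851). Elmo1, an engulfment adaptor, rose at day 35 (0.27, adjusted p = 0.0455), and no other gene of the list was called against PBS. Late against early, Mfge8 (0.70), Abca1 (0.33), Itgav (0.36) and Elmo1 (0.17) were higher. In that contrast 4.98% of the probe sets tested on array A were called higher and 10.4% lower.

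Markers of other cells that could carry these transcripts were followed beside them. Of 12 tested lymphatic endothelial genes limma called 0 in any contrast, with Lyve1 at 0.12 and Prox1 at 0.10 at day 27 (adjusted p = 0.587 and 0.808). The summed intensity of that list was 5325 to 5895 in PBS samples and 5804 to 6584 at day 27. Of 11 tested monocyte and neutrophil genes, Plac8 fell at day 27 (-0.28, adjusted p = 0.0487) and Csf3r rose at day 35 (0.25, adjusted p = 0.038). Of 11 dendritic cell genes, Itgax rose at day 35 (0.26, adjusted p = 0.0277), while the chemokine Ccl22 passed the F test (adjusted p = 0.0301) but no contrast with PBS (0.34 at day 3, adjusted p = 0.2). Of 9 T cell genes, Cd5 rose at day 35 (0.31, adjusted p = 0.0424). At day 35, 1.77% of all probe sets tested on array A were called higher and 5.58% lower. Of 12 listed adipocyte genes 10 were tested, and limma called none of them at days 1 to 27 and 3 lower at day 35. Those were Pck1, an enzyme of glyceride synthesis (-1.23, adjusted p = 0.00414), Cidec, a lipid droplet protein (-0.77, adjusted p = 0.00598), and Lipe, the hormone-sensitive lipase (-0.60, adjusted p = 0.00676). The summed intensity of the adipocyte list was 27758 to 30354 in PBS samples, 24713 to 26565 at day 3, 25633 to 30092 at day 27 and 20161 to 25709 at day 35, so that days 3 and 35 did not overlap with PBS. Their part in the changes of Adgre1, Slc40a1 and Timd4 was not tested.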

How the data were processed

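Each deposited value is a linear intensity; the authors' scaling, not given in the sources used here, was kept, and the values were used without further scaling. A floor at each table's 20th percentile (122.6 for A, 76.57 for B) was applied before log2. The tables had separate limma fits (version 3.58.1, R 4.3.3; eBayes with trend) over all 18 arrays and 6 groups, with no covariate. P-values are two-sided and adjusted by Benjamini-Hochberg within table and contrast over 12231 (array A) or 12516 (array B) probe sets; 64 control probe sets per array stayed out. The procedure was also run on simulated data with independent noise in every value. Those data held no shared deviation of same-numbered samples, as seen on array B, so the run does not cover it. The 9 genes and the gene lists were chosen with earlier results of these data known. A listed gene stands by its tested probe set of highest mean, and up to 4 called genes per list with the smallest F test p, the 3 genes most correlated with each member and a set of named macrophage, iron and growth factor genes are named; Cd209b, Lta, Ltb, Ltbr, Lyve1, Prox1, Itgax and other listed genes named beyond that were chosen after their values were seen. Gene names come from the platform annotation. For 1 array B sample of day 1 the source label did not name a treatment, so its title gave the group. Alternatives covered scaling, floor, filter, variance model, the replicate number as a block, array weights, the small-subunit mean as a covariate, the samples in the fit and single samples left out. The number of arrays limits the precision.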

Additional observations from a re-analysis of the deposited data

How the results depend on the processing

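Of the single probe set results recomputed under the alternatives, 1133 kept direction and side of the threshold, 47 newly passed it, 32 no longer passed it, 68 that were not called changed sign, and none that was called reversed. The count of called probe sets at day 3 (2) became 0 with no filter on dim probe sets and 0 with the small-subunit covariate. It was 1 when the 3 samples of lowest array A weight were left out on both arrays, and 0 to 1 with single samples left out. At day 27 (3) it was 5 after quantile normalization, 7 with array weights, 1 with the small-subunit covariate, 7 without the 3 samples and 2 to 6 with single samples left out, the highest without day 27 replicate 2. At day 35 (2) it was 1 with no filter, 5 with array weights, 0 with the covariate, 4 without the 3 samples (where Timd4 was lost) and 0 to 3 with single samples left out, 0 without day 0 replicate 1 or day 35 replicate 1. Late against early (0) gave 1 after quantile normalization, 6 with array weights, 1 with the replicate block, 5 without the 3 samples and 0 to 2 with single samples left out. Array weights gave 2 at day 2 (0) and 2 for day 35 against day 27 (0). The F test (3) called 0 with no filter, 9 with array weights, 6 without the 3 samples and 1 to 3 with single samples left out, 1 without day 0 replicate 1. The weights on array B did not converge (1 array reached 17.3), and those counts come from the weights at the last step. The cause of these differences was not tested.

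Same-numbered samples of different days were compared by their deviations from the group means. On array A r ran from -0.485 to 0.485, with a median of 0.019 against 0.004 for other numbers. There 9 of 18 samples were closest to their own number. On array B, which holds Timd4, r ran from -0.415 to 0.69, with a median of 0.37 against -0.098 for other numbers. There 16 of 18 were closest to their own number, so samples of the same number deviated together on that array. The source of this was not tested, and the main fit used no block. With the replicate block, Timd4 was called at day 3 (-0.53, adjusted p = 0.0479) and late against early (-0.30, adjusted p = 0.0327), Slc40a1 lost its day 3 call (adjusted p = 0.056), and the other calls held.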
